A study of Homo sapiens with 3 samples.

Results

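The promoters of 9 SOX genes, SOX4, SOX5, SOX6, SOX7, SOX9, SOX11, SOX13, SOX17 and SOX18, were followed through the promoter capture Hi-C (PCHi-C) contacts of hESC-CMs, cardiomyocytes made by differentiation of a human embryonic stem cell line. A promoter fragment was a HindIII fragment listed as the captured end of at least 1 called contact. Those that hold an annotated transcript start of one of these genes were used, and all contacts listed for them in any of 3 replicates were taken. A captured fragment never listed in this way is not counted, here or in the shares over all promoter fragments. This gave 9 of 19075 promoter fragments and 122 of 200587 distinct contacts. SOX6 had 2 promoter fragments and SOX7 had none, so contacts could be described for 8 of the 9 genes.

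PCHi-C ligates DNA fragments that lie close together in fixed nuclei and enriches the ligation products that contain a promoter. CHiCAGO scores each pair of fragments against the number of reads that distance and technical noise would give, and a partner fragment called in this way is a promoter-interacting region (PIR). The hESC-CMs came from the WA09 (H9) line, an established embryonic stem cell line, through the media of a cardiomyocyte differentiation kit, enrichment in medium with lactate in place of glucose, and recovery in serum and then B27-supplemented medium. There were 3 biological replicates of this 1 condition, no untreated or undifferentiated group, and no contact was therefore tested between groups. All replicates derived from 1 cell line, and the labels describe purity checks on MYH7 and TNNT2.

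SOX proteins are transcription factors that bind the minor groove of DNA through an HMG box, bend it and act together with partner factors. They are sorted into groups by sequence. SOX4 and SOX11 (group C) act in progenitor cells and in development of the cardiac outflow tract. SOX5, SOX6 and SOX13 (group D) lack a known activation domain of their own, and SOX5 and SOX6 assist SOX9 in cartilage. SOX9 (group E) directs cartilage formation and sex determination and is needed in heart valve mesenchyme. SOX7, SOX17 and SOX18 (group F) act in endothelium, with SOX17 also in endoderm and in early cardiac mesoderm.

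The replicates listed between 109731 and 112473 contacts with median scores between 6.63 and 6.65. No score under 5 is listed, so a contact missing from a replicate may have scored just under that limit. The sequencing depth was not analysed here. At least 1 contact called in all 3 replicates was found for 51.9% of all promoter fragments, and among marker genes for 5 of 5 of cardiomyocytes and for 2 of 2 of fibroblasts and smooth muscle. The 2 stem cell genes and the 2 endothelial genes had no promoter fragment in these files, so their contacts were not analysed here. Contacts do not measure how strongly a gene is expressed.

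Stretches of the highest-scoring PIRs of SOX4, SOX11, SOX9 and SOX13 are shown first, since later paragraphs refer to these PIRs. Sequences are from the plus strand of GRCh37. For SOX4, 300 bases at chr6:23446678-23446977 are given, in which capitals mark a match on the minus strand to CA, any 2 bases, AG, any 2 bases and GGCA. This pattern is a shifted form of the core of the CTCF binding motif, searched as CCA, any 2 bases, AG, any 2 bases and GGC, and shares most of its letters with it. It was searched for after the SOX4 sequence had been read. For the SOX11 PIR at chr2:4008996-4009115 and the SOX9 PIR at chr17:68762684-68762803, capitals mark the SOX core AACAATG on either strand. The SOX13 PIR is shown by its middle part at chr1:203839827-203839946, which holds none of these motifs. The highest-scoring PIR of SOX6, which also holds none of them, is not shown.
SOX4 highest-scoring PIR: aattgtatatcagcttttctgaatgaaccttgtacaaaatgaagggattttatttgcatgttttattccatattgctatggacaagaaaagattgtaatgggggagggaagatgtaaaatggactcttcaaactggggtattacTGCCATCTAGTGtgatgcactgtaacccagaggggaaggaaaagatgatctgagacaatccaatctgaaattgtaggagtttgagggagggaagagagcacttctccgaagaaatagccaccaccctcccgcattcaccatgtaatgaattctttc
SOX11 highest-scoring PIR: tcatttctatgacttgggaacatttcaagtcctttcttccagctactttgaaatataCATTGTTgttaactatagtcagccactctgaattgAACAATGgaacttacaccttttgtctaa
SOX9 highest-scoring PIR: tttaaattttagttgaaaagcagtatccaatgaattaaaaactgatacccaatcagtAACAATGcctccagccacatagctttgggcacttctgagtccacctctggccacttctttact
SOX13 highest-scoring PIR: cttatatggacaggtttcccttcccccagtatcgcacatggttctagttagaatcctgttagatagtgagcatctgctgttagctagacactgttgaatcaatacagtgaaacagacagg

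Across the 9 promoter fragments, 76, 78 and 86 contacts were called in replicates 1, 2 and 3 (80 ± 5.29, SD, n = 3). The number per promoter ranged widely. SOX4 and SOX6 held most of the contacts, and SOX5, SOX17 and SOX18 had at most 5 each. Of the 122 contacts, 49 (40.2%, 95% Wilson interval 31.9 to 49.0%) recurred in every replicate, 20 were called in 2 replicates and 53 in 1. Among all contacts in the files, 24% were called in all 3. The interval covers counting error only, and neighbouring PIRs of a promoter are not independent of each other. The share was 29.9% (26 of 87) without SOX4, 40% without SOX6 and 20% (9 of 45) without either. At least 1 contact in all 3 replicates was found for 5 of the 8 genes, against 51.9% of all promoter fragments, and this share is near the background.

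**Figure D1:**
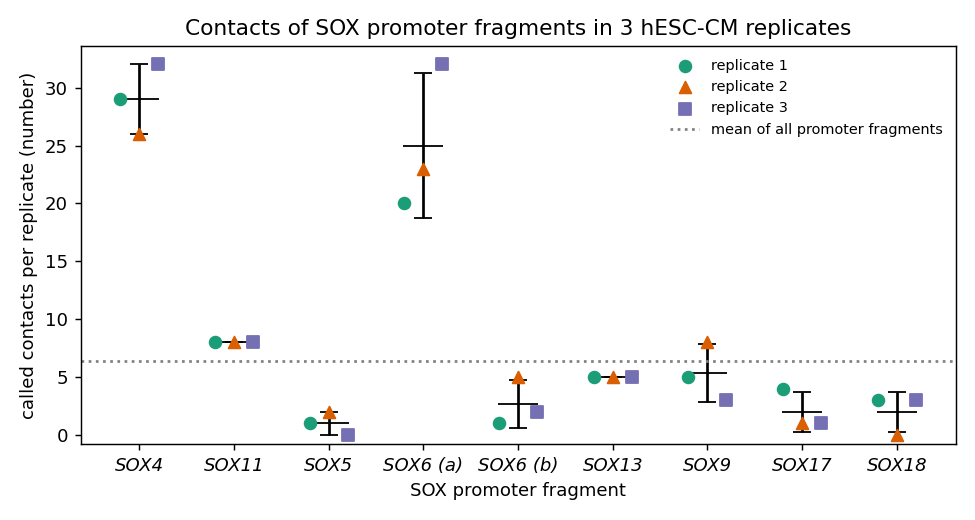
Number of contacts called in each replicate (y axis) for each SOX promoter fragment (x axis), with 1 point per replicate and the mean and SD of 3 replicates as bars. SOX6 (a) is the fragment at chromosome 11 position 16628042 and SOX6 (b) the fragment at 16759103. SOX4 and SOX6 (a) had 20 or more contacts in each replicate, and the other fragments had at most 8.

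The 2 group C genes made the longest contacts that recurred in all 3 replicates, up to 2610 kb for SOX4 and 1826 kb for SOX11, compared with at most 1353 kb for the other SOX promoters. Few protein-coding starts lie within 1 Mb of them, 3 for SOX4 and 1 for SOX11, where the median promoter fragment has 17. This is not particular to group C, since SOX5 and SOX9 have 2 each, and no SOX5 contact was called in all 3 replicates. SOX4 has its only annotated start in a fragment of 0.853 kb, chr6:21593556-21594408, which holds no start of another gene. It had 29, 26 and 32 contacts in the 3 replicates (29 ± 3, SD, n = 3) and 35 in their union, and 94.0% of all promoter fragments had fewer. Of these, 23 were called in all 3 replicates, more than in 98.3% of all promoter fragments. The nearest SOX4 contact was 606 kb away, and the median distance was 1144 kb, whereas the median over all contacts of promoter fragments was 691 kb.

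Most SOX4 contacts lay in blocks of several PIRs on either side of the gene, and the others were pairs or single PIRs. The highest-scoring block was downstream, between HDGFL1 and NRSN1, where 10 PIRs spanned 43.99 kb and 8 of them were called in all 3 replicates. The PIR at chr6:23446498-23447255 had scores of 27.4, 30.3 and 32.1 (29.9 ± 2.37, SD, n = 3) at 1853 kb. It lies within the long non-coding gene ENSG00000289368 and outside any protein-coding gene. The fragments on its left and right, chr6:23440218-23446497 and chr6:23447256-23449993, had mean scores of 25.9 ± 2.85 and 21.0 ± 2.82 (SD, n = 3). The scores therefore peaked over adjoining fragments, and all 3 replicates placed the peak there. In this peak the fragment with the highest mean over the replicates is the one whose sequence holds the capitals above. Of PIRs of similar length in the files, 3.29% hold that pattern. Because the pattern was chosen from this sequence, its match was fixed in advance, and this share does not measure how unusual the match is. The unshifted CTCF core has no match in this fragment. On the merged replicates the right neighbour of this fragment scored higher, at 33.5 against 32.4.

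Upstream, SOX4 contacted introns of CDKAL1, a methylthiotransferase gene that modifies transfer RNA. There were 7 PIRs in a block of 14.2 kb at about 1027 kb from the promoter, 6 of them in all 3 replicates, and 5 PIRs in a block of 11.5 kb at about 718 kb, all 5 in all 3 replicates. The PIR with the highest mean score upstream, chr6:20800711-20808545, gave 15.3, 11.4 and 13.5 in the replicates (13.4 ± 1.93, SD, n = 3) at 789 kb. It led this side in replicate 3 only, and chr6:20560177-20563629 (12.9 ± 3.88, SD, n = 3) differed from it by less than either SD. On the merged replicates chr6:20563651-20564144 scored highest upstream, at 21.85 against 17.37. The PIR chr6:20800711-20808545 is also a captured promoter fragment, with a start of the non-coding gene ENSG00000233848. A further captured fragment, with a start of the small RNA pseudogene RNU6-150P, scored 6.23, 15.1 and 11.8 (11.04 ± 4.48, SD, n = 3). The fragment with the CDKAL1 promoter itself was called for SOX4 in 2 replicates, at 5.35 and 5.43. No contact of SOX4 was to a PIR whose nearest protein-coding start was SOX4.

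The farthest SOX4 contact in all 3 replicates reached chr6:24202500-24206285 at 2610 kb. This PIR overlaps an exon and a start of DCDC2, a doublecortin-domain gene, and scored 7.78, 11.9 and 6.21 (8.64 ± 2.96, SD, n = 3). Among promoter fragments with such a contact, 96.2% reached less far. The CDKAL1 promoter was the promoter whose PIRs were most like those of SOX4, with 11 shared PIRs, which are 31.4% of the SOX4 PIRs and 18.0% of those of CDKAL1 (Jaccard index 0.129). The next most alike was SNORD46, with 6 shared PIRs.

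SOX11 has its start in chr2:5828892-5834630, together with starts of the non-coding genes LINC01248 and ENSG00000230090. It had 8 contacts in each replicate, and 15 in the union, of which 4 were called in all 3 replicates and 10 in 1. The equal counts hid different PIRs. All 15 PIRs were outside protein-coding genes and lay in 4 blocks. The strongest, chr2:4007203-4012360 over LINC01304, was 1822 kb upstream and scored 12.1, 9.54 and 17.5 (13.1 ± 4.07, SD, n = 3). The adjoining PIR at 1825 kb scored 5.27, 8.68 and 15.3, and the one at 1826 kb scored 13.7, 6.07 and 5.42, so the order of these 3 PIRs differed between replicates. The farthest contact of SOX11 in all 3 replicates was this last one.

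On the other side of SOX11, chr2:6911243-6913030 at 1080 kb scored 10.6, 7.59 and 16.8 (11.7 ± 4.72, SD, n = 3). The nearest protein-coding start to this PIR was that of CMPK2, a mitochondrial nucleotide kinase induced by interferon. The 2 leading SOX11 PIRs differed by less than their SDs. The promoter of RNF144A, a ubiquitin ligase gene, shared 3 PIRs with SOX11 (Jaccard index 0.130), and a fragment with starts of CMPK2 and RSAD2 shared 7 (also 0.130). A further CMPK2 fragment shared the most, 8, but had 58 PIRs in all (0.123). RSAD2 encodes viperin, an antiviral protein.

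**Figure D2:**
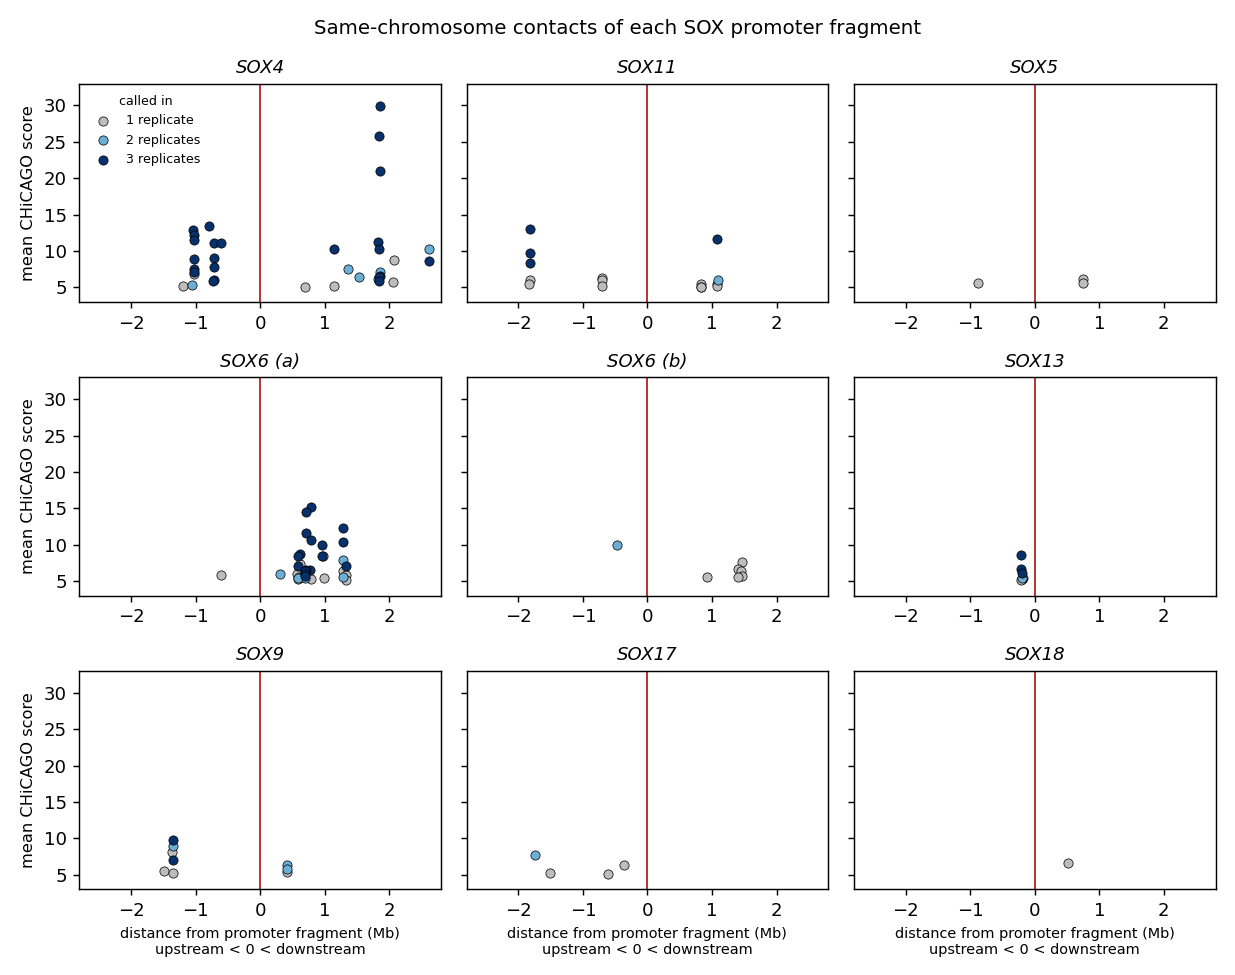
Mean CHiCAGO score over the replicates that called a contact (y axis) against its distance from the promoter fragment in Mb (x axis, upstream negative), for each SOX promoter fragment, coloured by the number of replicates with a call. Contacts on other chromosomes and the SOX17 contact at 10341 kb are not drawn. SOX4 and SOX11 had contacts in all 3 replicates on either side of the promoter, whereas those of SOX6 (a) lay downstream and those of SOX13 and SOX9 upstream.

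In group D, SOX6 had 42 contacts from 2 promoter fragments, SOX13 had 8 and SOX5 had 3. The fragment chr11:16628042-16635632 had 20, 23 and 32 contacts (25 ± 6.25, SD, n = 3), 35 in the union and 17 in all 3 replicates. It holds 1 of 19 annotated SOX6 transcript starts and also a start of C11orf58, a neighbouring gene transcribed in the opposite direction. The fragment chr11:16759103-16763174, with 3 SOX6 starts and again a C11orf58 start, had 1, 5 and 2 contacts and none in all 3 replicates. Neither fragment holds the start of a SOX6 transcript of the protein-coding class, so contacts of SOX6 and of C11orf58 cannot be told apart here. The start of the reference transcript of SOX6 (MANE Select) lies in a fragment that was not a promoter fragment in these files.

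The contacts of the larger fragment ran almost entirely in 1 direction, with 34 of 35 downstream in the sense of SOX6 transcription. They spread over the 3′ part of SOX6 and the gap between SOX6 and INSC, an adaptor gene of asymmetric cell division. The PIR chr11:15841977-15843821 scored 14.3, 15.4 and 15.7 (15.1 ± 0.739, SD, n = 3) at 789 kb, and the PIR chr11:15920528-15922929 scored 12.0, 15.4 and 16.3 (14.6 ± 2.30, SD, n = 3) at 710 kb. The difference between them is smaller than the SD of the second of them. Both of these PIRs were intergenic.

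Within the body of SOX6 itself lay 10 PIRs, of which 3 were called in all 3 replicates. The strongest of these, chr11:16008340-16010200, is intronic and scored 10.3, 6.79 and 8.86 (8.66 ± 1.78, SD, n = 3). The PIR chr11:16039265-16047462 is itself a captured fragment, with the start of the non-coding gene ENSG00000254878, and scored 7.87, 9.91 and 7.75. The farthest SOX6 contact in all 3 replicates was at 1331 kb with scores of 5.37, 7.72 and 8.15. Among the 35 PIRs, 29 were called for no other promoter fragment, a share that was not counted over all contacts. The nearest protein-coding start was that of SOX6 for 25 of the 35.

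The 2 SOX6 promoter fragments, 129 kb apart, shared 5 PIRs, which are 14.3% of the PIRs of the larger set and 71.4% of those of the smaller. The highest score of the smaller set was to a fragment with the starts of NUCB2 and PIK3C2A, at 11.2 and 8.8 in replicates 2 and 3. NUCB2 encodes nucleobindin 2 and PIK3C2A a class II lipid kinase. A further fragment with a SOX6 start was seen only as a PIR, in a contact from the ENSG00000254878 fragment that scored 5.43 and 7.66 in replicates 1 and 2.

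SOX13 has 6 of its 10 annotated transcript starts in chr1:204036461-204060592, which also holds a start of ENSG00000286572. It had 5 contacts in each replicate, 8 in the union and 3 in all 3 replicates. All 8 PIRs lay in 1 block of 27.7 kb upstream, from 188 to 212 kb away, over the end of SNRPE and the gap between it and SOX13. SNRPE encodes a core protein of spliceosomal snRNPs. The PIR chr1:203839379-203840395, over an exon of SNRPE, scored 6.62, 8.44 and 10.9 (8.65 ± 2.14, SD, n = 3). The adjoining 2 PIRs had mean scores of 6.64 ± 0.186 and 6.11 ± 0.104 (SD, n = 3). These were the shortest contacts of any of the SOX promoters.

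Contacts between SNRPE and SOX13 were also listed from the SNRPE side, for other pairs of fragments. The promoter fragment of SNRPE contacted 2 further fragments with SOX13 starts, at 252 and 260 kb, with scores between 6.09 and 7.05 in replicates 2 and 3 and no call in replicate 1. The promoter that shared most PIRs with SOX13 was that of ETNK2, an ethanolamine kinase gene next to SOX13, with 5 shared PIRs (Jaccard index 0.263). These are 62.5% of the SOX13 PIRs and 31.2% of those of ETNK2.

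SOX5 spans a long gene with 23 annotated transcripts, 6 of which start in its 1 promoter fragment, chr12:24100768-24104507. It had 1, 2 and 0 contacts in the replicates, and none recurred. Replicate 1 listed a contact at 881 kb to a fragment with the start of BCAT1, a branched-chain amino acid transaminase gene, at a score of 5.62. Replicate 2 listed 2 adjoining PIRs over LINC02566 at 744 and 742 kb, at 6.08 and 5.6. All 3 SOX5 contacts were also called on the merged replicates, at 6.28, 7.4 and 5.26.

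SOX9 has its start in chr17:70108137-70121329, together with a start of the antisense gene SOX9-AS1. It had 5, 8 and 3 contacts (5.33 ± 2.52, SD, n = 3), 9 in the union and 2 in all 3 replicates. SOX9 lies beside a wide region without protein-coding genes that ends at KCNJ2, a potassium channel gene, and this region is known to hold distant regulatory elements of SOX9. In these data 5 PIRs of SOX9 lay in a block of 18.0 kb within that region, at about 1352 kb from the promoter.

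The highest-scoring PIR of SOX9 called in all 3 replicates was chr17:68760828-68763231 at 1353 kb. It scored 14.6, 6.56 and 8.16 (9.76 ± 4.23, SD, n = 3), so replicate 1 was well above the others. Without replicate 1 the PIR named next led, with a mean of 7.79. The other PIR in all 3 replicates, chr17:68768071-68770103 at 1346 kb, scored 5.71, 6.82 and 8.75 (7.09 ± 1.54, SD, n = 3). A neighbouring fragment scored 9.63 and 8.41 in replicates 1 and 2. On the opposite side of SOX9, 3 PIRs over LINC00511 at 419 to 422 kb were called in 1 or 2 replicates each. Of the 9 PIRs of SOX9, 8 were called for no other promoter fragment, a share that was not counted over all contacts. The only promoter to share 1 was that of MAP2K6, a kinase gene of the p38 pathway.

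No contact of a group F gene was called in all 3 replicates (0 of 10, 95% Wilson interval up to 27.8%), where the share over all contacts was 24%. The 10 contacts came from 1 promoter fragment each of SOX17 and SOX18, and 4 were on other chromosomes. They are not independent and the interval covers counting error only, so no conclusion is drawn from the comparison. For SOX7, the fragment with its start, chr8:10587144-10593697, occurs in no contact in the files. SOX17, with its start in chr8:55368719-55373261, had 4, 1 and 1 contacts. The contact at 1744 kb to a fragment with the start of RB1CC1, an autophagy gene, was called in replicates 1 and 3 with scores of 9.78 and 5.63. The other 4 SOX17 contacts were called in 1 replicate each. They include fragments with the starts of LYPLA1 at 356 kb (6.3), ATP6V1H at 616 kb (5.06) and CYP7B1 at 10341 kb (5.1). Of the 5 SOX17 contacts, only that to the RB1CC1 fragment was also called on the merged replicates, at 7.25. In all, 4 of the 5 contacts of SOX17 were to a PIR over an exon, and these are among 14 such contacts of the 122 of all SOX promoters. The share of such PIRs was not counted over all contacts.

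SOX18 shares its promoter fragment, chr20:62671290-62683698, with TCEA2, and lies 0.342 Mb from the end of chromosome 20. It had 3, 0 and 3 contacts, and 4 of its 5 PIRs were on other chromosomes, whereas the promoter fragments of the other 7 genes described had none. Contacts with other chromosomes made up 3.28% of all SOX contacts, near the 3.65% over all promoter fragments. The PIR chr12:80280-84211 scored 7.04 in replicate 1 and 19.7 in replicate 3, and was not listed in replicate 2. This PIR was called for 24 promoter fragments, of which 23 were on chromosome 20, 11 within 1 Mb of its start and 11 within 1 Mb of its end. The adjoining PIR was called for 23 promoter fragments, all on chromosome 20. On the merged replicates none of these 4 contacts was called.

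The only SOX18 contact on chromosome 20 was to a fragment with the start of PTK6, an intracellular tyrosine kinase gene, at 508 kb with a score of 6.58 in replicate 1 and of 7.03 on the merged replicates. The promoter of DNAJC5, a synaptic vesicle chaperone gene, shared 4 of the 5 PIRs of SOX18 and had 8 in all. A fragment with a start of SOX12, at the other end of chromosome 20, shared 2.

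**Figure D3:**
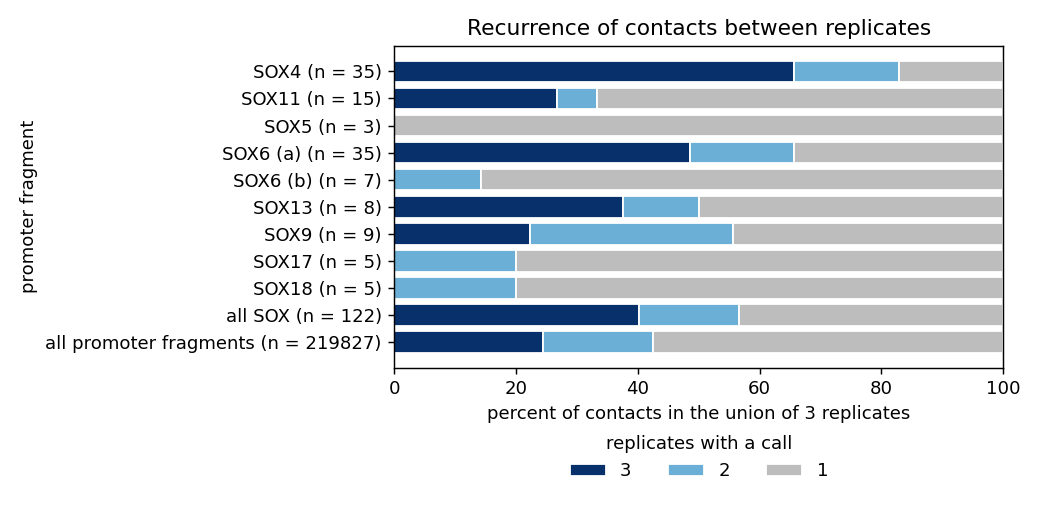
Percent of the contacts of each SOX promoter fragment (x axis) that were called in 3, 2 or 1 replicates, with the number of contacts in parentheses beside each name. For SOX4, 65.7% were called in all 3, and for SOX6 (a) 48.6%, whereas SOX5, SOX6 (b), SOX17 and SOX18 had none. The lowest bar counts the contacts of each promoter fragment, so that a pair of 2 promoter fragments enters from either side.

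Most SOX contacts were over 500 kb long, and their recurrence was set beside that of all contacts in the same distance class. The class beyond 1 Mb has no upper limit. SOX contacts reached 10341 kb and contacts of all promoter fragments 242981 kb, so lengths in this class were not matched. Over all contacts, the share called in all 3 replicates was 40.4% under 250 kb, 34.5% from 250 to 500 kb, 26.9% from 500 kb to 1 Mb and 11.8% beyond 1 Mb. For SOX contacts it was 37.5% (3 of 8), 0% (0 of 6), 45.7% (21 of 46) and 43.1% (25 of 58). The first 2 classes hold under 20 SOX contacts each, so no order among the classes is read from them. Without SOX4 the last 2 classes gave 36.8% and 29.0%, and without SOX4 and SOX6 they gave 0% (0 of 11) and 33.3% (6 of 18), so the contacts in all 3 replicates from 500 kb to 1 Mb were those of SOX4 and SOX6. Beyond 1 Mb, contacts in all 3 replicates came from SOX4 (16), SOX11 (4), SOX6 (3) and SOX9 (2).

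**Figure D4:**
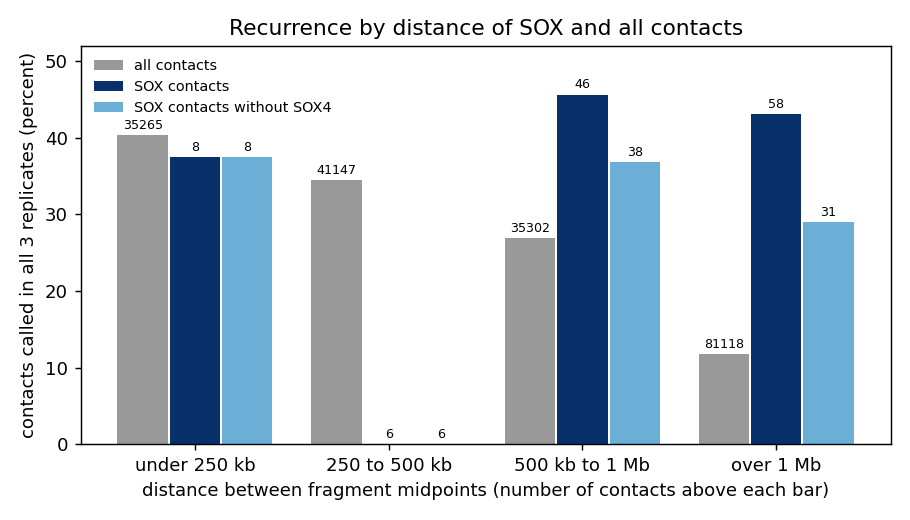
Percent of contacts called in all 3 replicates (y axis) by distance between fragment midpoints (x axis), for all contacts, SOX contacts and SOX contacts without SOX4, with the number of contacts above each bar. Beyond 1 Mb, a class with no upper limit in which lengths were not matched, the values were 11.8%, 43.1% and 29.0%.

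Among the 49 SOX contacts called in all 3 replicates, 46 were over 500 kb long and 25 over 1 Mb. Their PIRs were mostly outside protein-coding genes, with 31 intergenic in this sense, 16 intronic and 2 over exons. Non-coding genes were not considered in these classes, and some of the intergenic PIRs lie over one. In 24 the PIR was called for no other promoter fragment. Location and sharing of PIRs were not counted over all contacts, so these numbers are not shown to be particular to SOX promoters. Mean scores ran from 5.63 to 29.9 with a median of 8.92, and the SD between replicates was 15.1% of the mean at the median. Across pairs of replicates, between 51.9 and 54.3% of the SOX contacts called in either were called in both, and the scores of shared contacts had a Spearman rho between 0.57 and 0.71 (54 to 57 contacts in the 3 pairs, which share promoters and neighbouring fragments). Over all contacts the overlap was between 36.9 and 37.5% and rho between 0.65 and 0.66, which is above 2 of the 3 SOX values.

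These patterns were counted in the 117 distinct PIRs of SOX promoters, on either strand. The CTCF core was found in 11.1% of them and in 10.5% of all PIRs in the files. The shifted form, which was chosen from a SOX4 PIR counted here, was found in 19.7% (23 of 117) and in 12.9%. The SOX core was found in 41.0% and in 38.1%. Among PIRs called in all 3 replicates, the shares for SOX promoters and for all promoters were 12.2% and 13.4% for the CTCF core, 22.4% and 15.1% for the shifted form, and 30.6% and 37.1% for the SOX core. Among the PIRs of SOX4 in all 3 replicates, 5 of 23 held the shifted form and 8 the SOX core. The highest-scoring SOX11 PIR holds the SOX core 3 times and that of SOX9 2 times, and 60.1% and 38.4% of PIRs of similar length hold it at least once. A match is a string of letters and not a measured binding site.

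Other genes of the family and of its known targets were counted in the same way. Of 10 further SOX genes, 9 had a promoter fragment and 7 a contact in all 3 replicates, where 51.9% of all promoter fragments had one. SOX2, a pluripotency factor, had 31, 33 and 28 contacts, with 23 in all 3 replicates, as many as SOX4. SOX3 had 6 in all 3 replicates, SOX14, SOX15 and SOX21 had 2 each, and SOX8 and SOX10 had none. Of 12 known targets of SOX factors, 9 had a promoter fragment and 5 had a contact in all 3 replicates, which is close to that share. PROX1, a SOX18 target in lymphatic endothelium, had 36, 37 and 36 contacts and 29 in all 3 replicates. MATN1, a cartilage matrix gene, had 31 in all 3 over 2 promoter fragments, COL9A1 and VCAM1 had 4 each, TEAD2 had 2, and COL2A1, ACAN, DLL4 and TUBB3 had none.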

How the data were processed

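The deposited PCHi-C calls comprised 1 set for each of 3 biological replicates and a further set made on the merged replicates. The authors mapped reads with HiCUP to GRCh37, called contacts of HindIII fragments with CHiCAGO at default parameters and deposited 1 score per pair, from 5 upwards with 2 decimals. Versions were not given in the sources used here. Scores were neither recomputed nor rescaled, and read depth was not analysed.

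Of 127139 fragments in the replicate files, 127138 ended at HindIII sites of GRCh37. Transcript starts were taken from GENCODE 44 lifted to GRCh37, whereas the capture followed Ensembl 75. A contact was an unordered pair of a promoter fragment and a PIR in the union of the replicates. Distances are between fragment midpoints, and mean scores are over the replicates with a call. PIRs separated by at most 20 kb formed a block. PIRs of similar length were within 20%. SDs are between replicates, and Wilson intervals are at 95%.

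Named were the members, their 3 highest-scoring contacts and farthest contact among those in all 3 replicates, the genes at these, captured fragments contacted in all 3, up to 2 promoters most alike in their PIRs by Jaccard index, and the listed genes. Some short PIRs that this rule takes in are not reported here. For members with no such contact, and for further fragments, names were chosen after their values were seen. Members and lists were chosen with earlier results of these data known. Counting was tested on simulated data. Software was Python 3.11.15, numpy 2.4.6, pandas 2.3.3, scipy 1.17.1, matplotlib 3.10.9 and pysam 0.24.0.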

Additional observations from a re-analysis of the deposited data

Results flagged for a closer look

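The calls made on the merged replicates were not used in the counts above, and they held SOX contacts that no single replicate listed. There were 34 of these, with scores from 5.01 to 8.2 and a median of 5.54. They were picked for being absent from every replicate, and the data hold no control sample to compare them with. Of the 34, 16 belonged to the larger SOX6 fragment, 7 to SOX4 and 4 to SOX17. All 49 SOX contacts called in all 3 replicates were also called on the merged replicates, as were 18 of the 20 called in 2 replicates and 34 of the 53 called in 1.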

How the results depend on the processing

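The union of 122 SOX contacts fell to 57 at a score of at least 7 and 32 at a score of at least 10, to 80 with protein-coding transcript starts only (which leaves out SOX6), to 43 with fragments that hold no start of another gene and to 60 within 1 Mb. The share in all 3 replicates (40.2%) was 31.2% at a score of at least 10, 53.5% in fragments with no start of another gene, and 63.9% when a PIR within 5 kb counted as the same. With 1 replicate left out, the share called in the other 2 was between 51.9 and 54.3%, and the median distance was between 971 and 1023 kb. The median distance (983 kb) was 1056 and 1080 kb at scores of at least 7 and 10, 789 kb on the merged calls, 1026 kb for lines with the SOX fragment listed first, 1045 kb with protein-coding transcript starts only, 1139 kb in fragments with no start of another gene, and 697 kb within 1 Mb. The median number of contacts per gene (8.5) was 4 and 2.5 at scores of at least 7 and 10, 5 in fragments with no start of another gene and 4.5 within 1 Mb. The median over genes of the highest score (11.4) was 15.2 at a score of at least 10, 7.7 in fragments with no start of another gene, and 6.46 within 1 Mb. Chosen after seeing the data, leaving out SOX4 gave 29.9% in all 3 replicates and a median of 789 kb, and leaving out SOX6 gave 80 contacts, 40% and 1045 kb. For single genes, 36 values moved by more than 1.5 times (numbers of contacts) or 1 SD (scores) and 138 did not. A gene left with no contact under an alternative is in neither count. Examples are SOX5 at a score of at least 7 and SOX6 with protein-coding transcript starts only. The 138 include counting pairs by their listed order, which changed no value. Genes with no contact in all 3 replicates were judged by the median SD of the other genes. No paired analysis was possible because there is 1 group. Without replicate 1 another PIR of SOX9 led, and at a score of at least 7 SOX4 had more contacts (24) than SOX6 (19), in reverse of the main order (35 and 42). The comparisons with all contacts were not repeated under these alternatives. Contacts that score under 5 in a replicate cannot be counted.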
